A study of Mus musculus with 8 samples.

Results

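The keratins and the proteins of stratified epithelium were examined in oviduct RNA of adult mice on GD2. The members were the probes whose gene name in the array files starts with Krt, together with those of Ivl, Lor, Trp63, Dsg1a, Dsg3, Evpl, Ppl and Sfn. They comprised 104 of the 41174 noncontrol probes on the array and 80 of the 27670 genes or transcripts named there. Of these, 6 were keratins of simple epithelium (with Krt20 and Krt23), 5 were basal cell genes of stratified epithelium, 13 were keratins of suprabasal layers or of other specialised epithelia and 7 were stratified epithelium genes that are not keratins. The remaining genes were 18 keratins of hair and the inner root sheath, 27 keratin-associated proteins of hair and 4 other genes whose names begin with Krt.

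Keratins are the intermediate filament proteins of epithelial cells. Each filament is built from a type I keratin paired with a type II keratin, and the pair depends on the kind of epithelium: Krt8 with Krt18 in single-layered epithelium, Krt5 with Krt14 in the basal cells of stratified epithelium, and Krt1 with Krt10 once those cells leave the basal layer. The oviduct is lined by a single layer of ciliated and secretory cells, whereas the vagina, the most posterior part of the female reproductive tract, is lined by stratified squamous epithelium, whose basal cells depend on the transcription factor Trp63. The comparison addressed whether an oviduct exposed to Gen soon after birth carried the keratins of a simple or of a stratified epithelium.

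The mice were females of CD-1, an outbred stock. From PND1 to PND5 they received daily subcutaneous injections of either the corn oil vehicle alone (control) or genistein (Gen), a phytoestrogen, suspended in it at a dose of 50 mg/kg/day. All were superovulated with gonadotropins and mated as adults aged 6–8 weeks. Oviducts were taken 48 hr after hCG with the embryos removed. Each group had 4 independent biological replicates, each on 1 array, and how many mice made a replicate is not given for the arrays in the sources used here. The signals given are Agilent processed signals, which are intensities after background adjustment, scaled to a common 75th percentile between arrays. They allow the arrays to be compared for 1 probe but not 1 probe with another.

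Between 25391 and 28949 probes were above background on the control arrays and between 29539 and 31485 on the Gen arrays, and before scaling the 75th percentile was 1908 to 2432 in controls and 2149 to 3772 after Gen. By the image names in the sample labels, the control arrays were on slide 1 and the Gen arrays on slide 2, and a slide effect and a treatment effect cannot be told apart. Among the 7856 probes above background on no array, 7571 had a lower signal in the Gen arrays, with a median log2 difference of -1.16. The tests therefore used the 19612 genes that had a probe above background on at least 4 of the 8 arrays, irrespective of group. The whole organ was assayed, so fewer epithelial cells and less keratin RNA per cell cannot be told apart. Genes of ovarian steroidogenic cells had a median log2 fold change of 2.17 over 6 genes tested, and the summed signal of this list was 4156 to 29379 in controls and 32598 to 141080 after Gen. This sum is led by Hsd3b1 (geometric mean 2693 in controls and 48830 after Gen), whose signal was 18615 in control replicate 3 and 900 to 2445 in the other controls. Star, Cyp11a1 and Inha had log2 fold changes of 1.80, 4.43 and 2.54, but Cyp17a1 had -0.02 and Fshr 0.49. The smooth muscle list had a median log2 fold change of -0.26, with 6 of 6 genes tested below 0. The mesothelium list had one of 0.14, with 5 genes above 0 and 1 below, and the stroma list -0.06, with 2 above and 3 below. Of all genes tested, 54.3% were above 0. None of these lists held a gene that passed an adjusted p of 0.05 in limma. The part of these cell types in the keratin results was not tested.

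Of the 80 genes, 43 were tested, 34 of them above background on all 8 arrays. A further 11 were above background on some arrays but not tested, and 26 were above background on no array. All 35 member probes above background on no array had a lower signal in the Gen arrays, with a median log2 difference of -1.22, close to that of all such probes.

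The simple epithelium keratins were present throughout, and Krt23 stood apart. Krt8, the type II keratin of simple epithelium, had signals of 143649, 187929, 161129 and 157829 in the controls and of 152321, 121974, 125335 and 125242 in Gen-treated mice. The groups overlapped through 1 Gen array, and the log2 fold change was -0.31 (SE 0.12, adjusted p in limma = 0.223), or -0.068 without scaling between arrays. Its type I partner Krt18 had signals of 269927, 298788, 253110 and 270377 in controls and of 315197, 252734, 218395 and 329186 after Gen. The Gen arrays lay on both sides of the controls. The log2 fold change of Krt18 was 0.01, with a 95% interval from -0.32 to 0.35.

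Krt19, a type I keratin of simple epithelia and ducts, had signals of 101280, 141280, 103943 and 115113 in controls and of 87439, 68727, 87801 and 87445 in Gen-treated mice. Every Gen array was below every control. The signal was 1.39-fold lower, with a log2 fold change of -0.47 (SE 0.14, adjusted p in limma = 0.139), and the exact permutation test gave p = 0.0286, the smallest that 4 against 4 arrays allow. Its unadjusted p in limma was 0.00971, but 0.0257 with quantile normalization and 0.437 without scaling, where the log2 fold change was -0.23. Krt7, a type II keratin of simple and ductal epithelium, had signals of 56553, 46156, 39323 and 39093 in controls and of 48710, 59839, 51448 and 67744 after Gen. The groups overlapped, with a log2 fold change of 0.34 (SE 0.16, adjusted p in limma = 0.302), and the other Krt7 probe gave 0.10. Krt20, best known from intestine and bladder, had signals of 544, 1113, 254 and 925 in controls and of 616, 453, 337 and 428 after Gen, all 4 within the range of the controls.

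Krt23, a type I keratin described in glandular epithelium, had signals of 3451, 3613, 1899 and 1324 in controls. In Gen-treated mice they were 5760, 12509, 8348 and 12580, so that the lowest Gen value was above the highest control. The signal was 3.94-fold higher (log2 fold change 1.98, SE 0.38, 95% interval 1.10 to 2.86). The adjusted p in limma was 0.0593 over all probes tested, and it ranged from 0.00041 to 0.167 over the other ways of processing the 8 arrays. Leaving out each array in turn kept the log2 fold change between 1.70 and 2.21. The Krt23 probe lies at chr11:99587118-99587177 on the minus strand in mm7, the build of the array design.

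**Figure D1:**
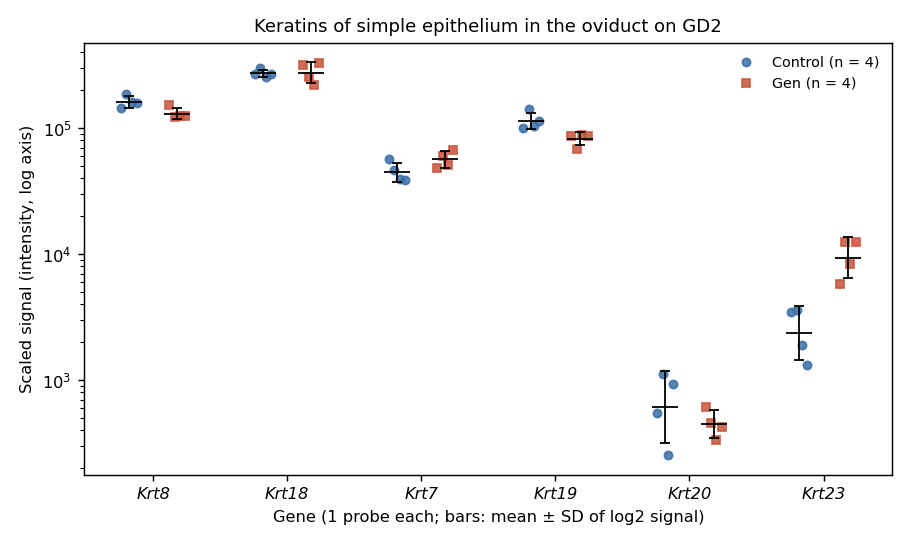
Scaled signal (intensity, log axis) of 6 simple epithelium keratins on each of the 4 control arrays (circles) and 4 Gen arrays (squares), with the mean and SD of the log2 signals as bars. For Krt23 the Gen arrays, from 5760 to 12580, lie above the controls, from 1324 to 3613, and for Krt19 they lie below, whereas Krt8, Krt18, Krt7 and Krt20 overlap.

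None of the 43 member genes tested passed an adjusted p of 0.05 in limma, where 0.571% of all genes were called higher and 0.433% lower. At an unadjusted p under 0.05, 2 were higher and 9 lower, beside 11% of all genes higher and 8.32% lower. At an unadjusted p under 0.01, Krt23 and Krt85 were higher and Krt19, Krt31, Krt35 and Krt36 lower, beside 4.14% of all genes higher and 3.29% lower. Groups did not overlap for 2 members that were higher (Krt23 and Krt85) and 5 that were lower (Krt19, Krt31, Krt35, Krtap19-1 and Sfn), where 6.3% of all genes were higher and 6.11% lower without overlap. Both counts include Krt31, which was above background on 3 control arrays and 1 Gen array, with Gen signals of 6.05 to 27.2. With signals held at a floor, 3 members were lower at an unadjusted p under 0.01 in limma, and Krt31 was not among them. The count at p under 0.01 was 3 without control replicate 3, control replicate 4 or Gen replicate 4. Of the 43 genes, 17 had a log2 fold change above 0 and 26 below, with a median of -0.16, where 54.3% of all genes were above 0 and their median was 0.03. Without scaling between arrays the median of all genes was 0.27, and 26 of the 43 members were above 0.

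**Figure D2:**
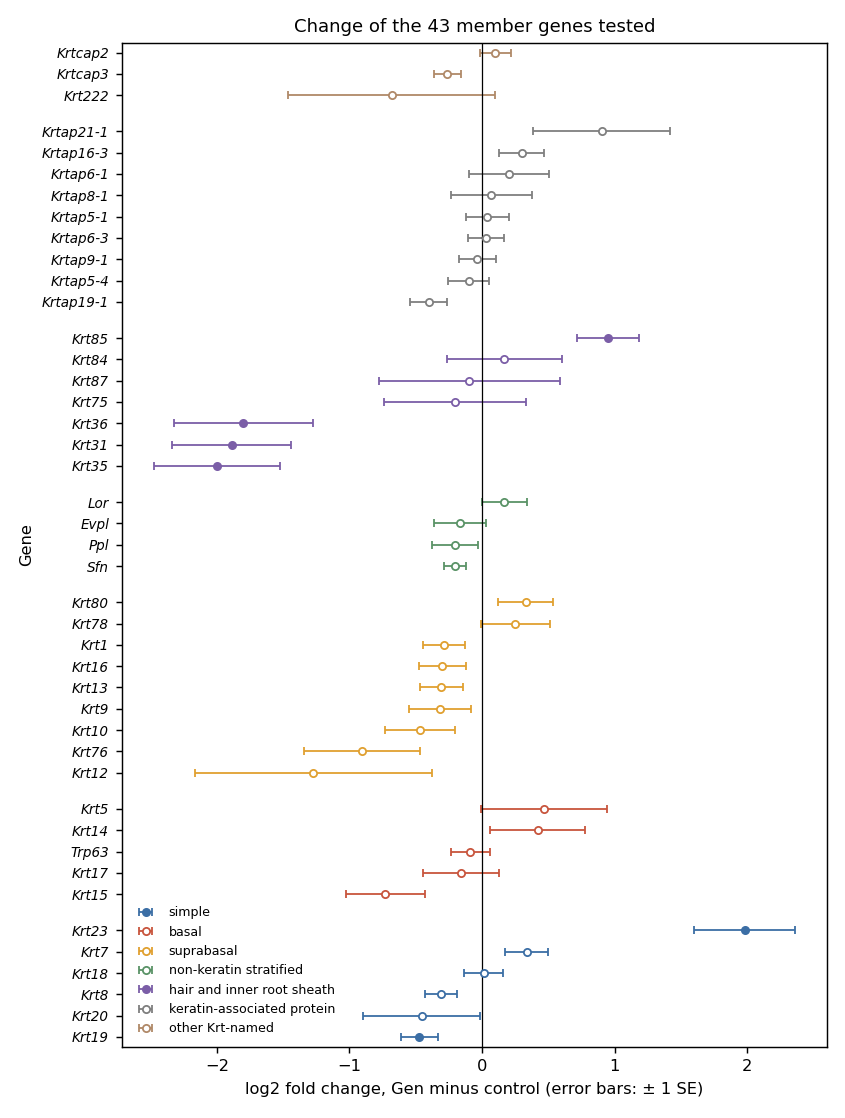
Log2 fold change (Gen minus control) of the 43 member genes tested, by class, with bars of 1 SE from limma; filled points have an unadjusted p under 0.01. Krt23 lies farthest to the right at 1.98, Krt35 and Krt36 lie far to the left, as does Krt31, which was above background on 1 Gen array and was at -0.38 with signals held at a floor, and most other intervals lie near 0.

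General epithelial genes did not move in a single direction. Cdh1, which encodes E-cadherin, the adhesion protein between epithelial cells, had a log2 fold change of 0.30 (SE 0.20, adjusted p in limma = 0.451), and Epcam, an epithelial surface protein, of -0.17 (adjusted p = 0.575). The tight junction proteins Cldn3 (log2 fold change -0.67, adjusted p in limma = 0.0889) and Cldn7 (-0.44, adjusted p = 0.117), named after their values were seen, were lower on all 4 Gen arrays than on any control. Of 9 such genes tested, 3 were above 0 and 6 below, with a median log2 fold change of -0.12, and none passed the adjusted threshold in limma. An unadjusted p under 0.05 was reached by 3 (Cldn3 and Cldn7 lower, Spint2 higher), beside 11% of all genes higher and 8.32% lower. The summed signal of the 9 genes was 159926 to 191343 in controls and 123766 to 143698 after Gen. This sum is led by the probes with high signals, Cldn3 (geometric mean 68444 in controls and 43056 after Gen) and Cldn7 (42552 and 31305), and is no shift of the whole list. The part of Cldn3 and Cldn7 in the values of Krt8 and Krt19 was not tested. The ciliated cell list had a median of -0.05 over 8 genes tested and the secretory cell list one of -0.28 over 3, and neither held a gene that passed the adjusted threshold.

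The basal genes were above background in both groups, with large differences between arrays of the same group. Krt5, the type II keratin of basal cells, had signals of 93.4, 168, 169 and 483 in controls and of 222, 404, 186 and 282 in Gen-treated mice. A single control had the highest value and another the lowest. The log2 fold change was 0.47 with a 95% interval from -0.62 to 1.55 (adjusted p in limma = 0.614), so a change of moderate size in either direction was not detectable here. Krt14, its type I partner, had signals of 132, 130, 174 and 260 in controls and of 237, 406, 131 and 197 after Gen. These overlapped too, with a log2 fold change of 0.42 and a 95% interval from -0.40 to 1.24 (adjusted p = 0.545).

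Krt15, a type I keratin of basal cells, had signals of 1386, 1216, 906 and 1532 in controls and of 571, 1203, 913 and 493 in Gen-treated mice. A pair of Gen arrays lay below all controls and the others within their range, and the log2 fold change was -0.73 (SE 0.30, adjusted p in limma = 0.240). Krt17, a keratin of basal and activated epithelial cells, ranged from 1363 to 1670 in controls and from 946 to 2547 after Gen. Its log2 fold change was -0.16 (SE 0.29), with an SD of 0.13 on the log2 scale in controls and of 0.63 after Gen. Trp63, the transcription factor needed to form stratified epithelium, had signals of 272 to 373 in controls and of 255 to 348 after Gen on the probe tested, with a log2 fold change of -0.09 (SE 0.15, adjusted p in limma = 0.764). The other probes of Trp63 were above background on no array.

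**Figure D3:**
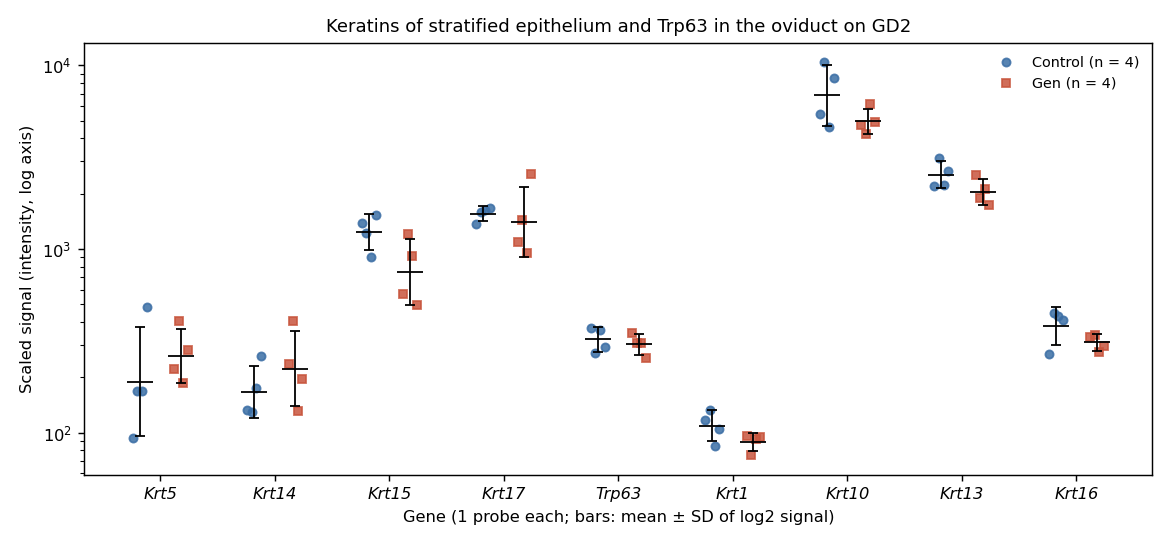
Scaled signal (intensity, log axis) of basal genes (Krt5, Krt14, Krt15, Krt17, Trp63) and of the suprabasal keratins Krt1, Krt10, Krt13 and Krt16 on each of the 4 control arrays (circles) and 4 Gen arrays (squares), with the mean and SD of the log2 signals as bars. The groups overlap for each gene shown, and Krt5 spans 93.4 to 483 among the controls alone.

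No keratin of the suprabasal layers or of other specialised epithelia had an unadjusted p under 0.05 in limma. Of 13 genes, 9 were tested, 2 with a log2 fold change above 0 and 7 below, where 54.3% of all genes were above 0, and the median was -0.31. Krt1, the first type II keratin made when cells leave the basal layer, had a log2 fold change of -0.29 (SE 0.16, adjusted p in limma = 0.361). The second Krt1 probe gave 0.007 (SE 0.32, adjusted p = 0.992). Krt10, the type I partner of Krt1, had signals of 5403, 10379, 4622 and 8484 in controls and of 4736, 4209, 6157 and 4892 in Gen-treated mice. A pair of controls lay above all Gen arrays, and the log2 fold change was -0.47 (SE 0.26, adjusted p = 0.371).

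Krt13, a type I keratin of non-cornified stratified epithelium such as that of the oral cavity and vagina, had signals of 2200, 3144, 2241 and 2673 in controls and of 2530, 1903, 2122 and 1731 after Gen. The log2 fold change was -0.31 (SE 0.16, adjusted p in limma = 0.345), and the second probe gave -0.87 (adjusted p = 0.273). Krt4, the type II partner of Krt13, was above background on none of the control arrays and 3 of the Gen arrays. Its signals were 9.97, 8.45, 15.9 and 9.19 in controls and 19.4, 117, 24.7 and 17.5 after Gen, and since the lowest signal counted as above background differed between arrays, no fold was given. Krt6a, Krt6b and Krt2, keratins of activated or cornified epidermis, were above background on no array.

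Krt12, known as the type I keratin of corneal epithelium, had the largest SE of this class. Its signals were 364, 2947, 205 and 1297 in controls and 440, 106, 699 and 257 after Gen, with a log2 fold change of -1.27 and an SE of 0.90 (adjusted p in limma = 0.468). The same pair of controls, replicates 2 and 4, was highest for Krt12 and for Krt10. Krt16, a keratin of activated epidermis, had a log2 fold change of -0.30, Krt9, of palm and sole skin, of -0.32, and Krt76, of oral epithelium, of -0.91, whereas Krt78 had one of 0.25 and Krt80 of 0.33. Their limma adjusted p-values lay between 0.306 and 0.624. Krt76 was above background on 3 control and 3 Gen arrays, with signals of 29.7 to 79.1 in controls and 11.3 to 37.5 after Gen. Krt9 and Krt78 were above background on 2 control and 4 Gen arrays, with no signal above 71.3.

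Members that are not keratins included genes of the cornified envelope and of desmosomes, measured as RNA. The desmosomal cadherins Dsg1a and Dsg3 and the envelope precursor Ivl (involucrin) were above background on no array. Lor (loricrin), the main protein of the cornified envelope, had signals of 171 to 264 in controls and of 204 to 281 in Gen-treated mice, and a log2 fold change of 0.17 (SE 0.17, adjusted p in limma = 0.609). Ppl (periplakin), which links keratin filaments to the cell border, had signals of 7745 to 12816 in controls and of 7314 to 9938 after Gen, with a log2 fold change of -0.20 (adjusted p = 0.539). The second Ppl probe, with lower signals, gave 0.07 (SE 0.33, adjusted p in limma = 0.928).

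Evpl (envoplakin), the partner of periplakin, gave different results on its 2 probes. On the probe with the higher signal the log2 fold change was -0.17 (adjusted p in limma = 0.664), with control signals of 16934, 16773, 12827 and 16375 and Gen signals of 14605, 10537, 12383 and 19576. On the other it was -0.54 (SE 0.13, adjusted p in limma = 0.0963), and the controls, from 2112 to 2756, all lay above the Gen arrays, from 1472 to 1798. Sfn, the epithelial 14-3-3 protein sigma (stratifin), had signals of 22197, 22467, 21740 and 21620 in controls and of 20020, 19798, 19028 and 17655 after Gen. The groups did not overlap, yet the difference was small, 1.15-fold lower (log2 fold change -0.20, SE 0.09, adjusted p in limma = 0.247). Without scaling between arrays the log2 fold changes of Sfn, Ppl and the brighter Evpl probe were 0.04, 0.04 and 0.07.

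Of 15 tested genes of desmosomes and hemidesmosomes, the junctions that anchor keratin filaments, 6 had a log2 fold change above 0 and 9 below, with a median of -0.09. None passed the adjusted threshold in limma and 1 had an unadjusted p under 0.05, where 11% of all genes were higher and 8.32% lower. This was Lamb3, a laminin chain of the epithelial basement membrane (log2 fold change -1.03, SE 0.30, adjusted p = 0.130), which was named after its values were seen. Of 18 further cornified envelope genes, 8 were tested, with 2 above 0 and 6 below and a median of -0.17. None passed in limma. Sprr2f and Calml3 had an unadjusted p under 0.05 in limma, beside the same shares of all genes. The log2 fold change of Sprr2f was -2.78 (SE 1.01, adjusted p in limma = 0.198) and that of Calml3 -0.67 (SE 0.24, adjusted p = 0.189). Both overlapped between the groups and were named after their values were seen. Sprr2f had signals of 679, 321, 758 and 226 in controls and of 14.3, 22.4, 137 and 383 after Gen. Of these, 14.3 and 22.4 were under the floor of 29.7 used as an alternative.

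Within-array differences between partner keratins, in which the scaling cancels, were compared for 6 pairs. Krt8 minus Krt18 moved by -0.32 on the log2 scale from controls to Gen-treated mice and Krt7 minus Krt19 by 0.81, each with p = 0.0571 in the exact two-sided permutation test and p = 0.171 after Benjamini-Hochberg adjustment over the 6 pairs. Krt5 minus Krt14 moved by 0.05 (exact p = 0.771, adjusted p = 0.771) and Krt1 minus Krt10 by 0.18 (exact p = 0.429, adjusted p = 0.514). The basal keratins were also set against the simple ones: Krt5 minus Krt8 moved by 0.78 (exact p = 0.171, adjusted p = 0.343) and Krt14 minus Krt18 by 0.41 (exact p = 0.429, adjusted p = 0.514). All pairs overlapped between the groups, and 0.0286 was the smallest p the design allowed.

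Among members above background on all 8 arrays, Krt35 and Krt36, keratins known from hair, had the lowest log2 fold changes. Of 18 hair and inner root sheath keratins, 7 were tested and 8 were above background on no array. The genes Krt31, Krt35, Krt36 and Krt85 were singled out after their values were seen. Krt35, a type I keratin of the hair cortex and cuticle, had signals of 919, 2889, 1222 and 1408 in controls and of 524, 187, 678 and 269 in Gen-treated mice. All 4 Gen arrays were below all controls, and the signal was 4.0-fold lower (log2 fold change -2.0, SE 0.48, adjusted p in limma = 0.091; exact permutation p = 0.0286).

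Krt36, another type I keratin of hair-type structures, had signals of 328, 993, 1337 and 615 in controls and of 246, 202, 384 and 95 after Gen. The lowest control lay below the highest Gen array. The log2 fold change was -1.80 (SE 0.52, adjusted p in limma = 0.133), and a second Krt36 probe gave -1.76. Krt31, a type I keratin of the hair cortex, was near the limit of detection, above background on 3 control arrays and 1 Gen array, with signals of 43.04, 43.8, 27.6 and 39.7 in controls and of 10.04, 6.66, 6.05 and 27.2 after Gen. Its log2 fold change of -1.89 (SE 0.45, adjusted p in limma = 0.0903) was -0.38 (unadjusted p = 0.0203) when signals were held at a floor of 29.7 and -0.68 with normexp background correction, with adjusted p-values from 0.00729 to 0.187 over the ways of processing the 8 arrays.

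Krt85, a type II keratin of the hair matrix and cuticle, differed in the opposite direction. Its signals were 152, 104, 90.7 and 90.4 in controls and 168, 293, 172 and 213 after Gen. The groups did not overlap, with a signal 1.93-fold higher (log2 fold change 0.95, SE 0.23, adjusted p in limma = 0.0943) that was 0.49 on the log2 scale with normexp background correction. Krt75, of the companion layer around the hair shaft, had signals of 1202, 1113, 1284 and 1187 in controls and of 1220, 411, 737 and 3144 after Gen. Controls were close together and Gen arrays were not, and the log2 fold change was -0.20 (SE 0.54, adjusted p in limma = 0.860).

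**Figure D4:**
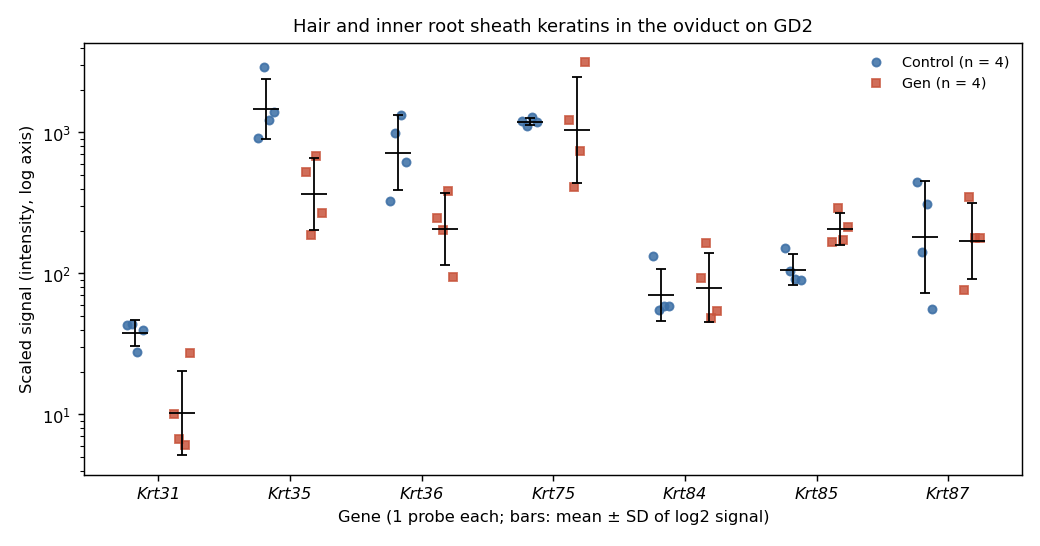
Scaled signal (intensity, log axis) of the 7 hair and inner root sheath keratins tested on each of the 4 control arrays (circles) and 4 Gen arrays (squares), with the mean and SD of the log2 signals as bars. The Gen arrays lie below the controls for Krt31 and Krt35 and above them for Krt85, and for Krt75 they span 411 to 3144 around controls of 1113 to 1284.

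Of the 27 keratin-associated proteins, which crosslink keratins in the hair shaft, 9 were tested. The log2 fold change was above 0 for 6 and below for 3 (median 0.04), where 54.3% of all genes were above 0. Among those above 0, Krtap21-1 and Krtap8-1 were above background on 1 control array and 4 Gen arrays, and Krtap6-1 on 2 and 4. The lowest signal counted as above background was 28.5 to 65.9 on control arrays and 14.5 to 20.9 on Gen arrays. Many genes of keratin-associated proteins are short and closely alike in sequence, so 1 probe may also read a neighbouring gene. Krtap19-1 had signals of 5207, 6026, 5809 and 5197 in controls and of 4700, 4832, 3303 and 4157 after Gen. The groups did not overlap, with a log2 fold change of -0.40 (SE 0.14, adjusted p in limma = 0.183), or -0.16 without scaling between arrays. A second Krtap19-1 probe was above background on no array. Krtap5-4 had a log2 fold change of -0.10.

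Of the other genes whose names begin with Krt, Krtcap3 had signals of 29622 to 32838 in Gen-treated mice and of 32777 to 40097 in controls, with a log2 fold change of -0.26 (SE 0.10, adjusted p in limma = 0.219). Its second probe gave -0.36 without overlap between the groups. On the first Krtcap3 probe the log2 fold change was -0.02 without scaling between arrays. Krtcap2, a subunit of the oligosaccharyltransferase complex, had a log2 fold change of 0.10 (SE 0.12).

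Type I and type II keratin genes form a cluster each in the mouse genome, and the tested keratins were placed in the order of their probes. On chromosome 11, where the type I genes lie, 14 keratin genes were tested, 2 with a log2 fold change above 0 (Krt23 and Krt14) and 12 below, with a median of -0.46. Krt222, classed with the other Krt-named genes, was not counted, although its probe also lies on chromosome 11 (start 99343022 in mm7). Its log2 fold change was -0.68 (SE 0.78, adjusted p in limma = 0.661). Krt31, Krt35 and Krt36 are neighbours in this order, with probe starts at 100155819, 100201264 and 100211302 in mm7. On chromosome 15, where the type II genes and the type I gene Krt18 lie, 7 of 12 were above 0 and 5 below, with a median of 0.09. Krt18 (0.01) was counted among those above 0. Neighbouring genes are not independent replicates, and the difference between the clusters was not tested.

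**Figure D5:**
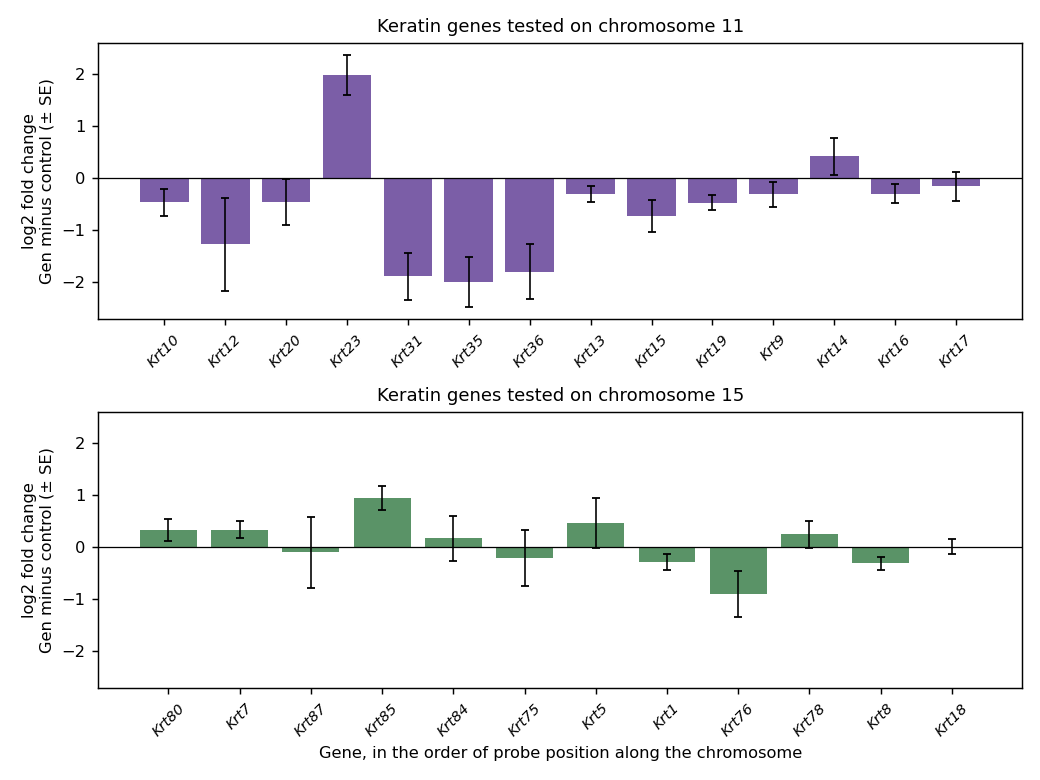
Log2 fold change (Gen minus control, bars of 1 SE) of the keratin genes tested, without Krt222, in the order of their probes along chromosomes 11 and 15. On chromosome 11 the bars lie below 0 except for Krt23 and Krt14, and Krt31, Krt35 and Krt36 are adjacent; on chromosome 15 they lie on both sides of 0.

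Of the 5 members on chromosome 11 with an unadjusted p under 0.01, RefSeq promoters were matched for Krt23, Krt31 and Krt36, which are shown because their log2 fold changes were of opposite sign, and not for Krt35 and Krt19. Each is the 250 bases before the RefSeq start in GRCm38.p6, 5′ to 3′, with matches to the motifs searched in capitals.
Krt23, chr11:99493121-99493370 (- strand): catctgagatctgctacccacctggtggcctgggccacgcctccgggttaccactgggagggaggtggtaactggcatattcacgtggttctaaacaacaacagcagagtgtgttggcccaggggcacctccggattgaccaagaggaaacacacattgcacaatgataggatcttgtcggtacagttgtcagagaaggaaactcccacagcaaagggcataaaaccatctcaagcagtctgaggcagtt
Krt31, chr11:100050552-100050801 (- strand): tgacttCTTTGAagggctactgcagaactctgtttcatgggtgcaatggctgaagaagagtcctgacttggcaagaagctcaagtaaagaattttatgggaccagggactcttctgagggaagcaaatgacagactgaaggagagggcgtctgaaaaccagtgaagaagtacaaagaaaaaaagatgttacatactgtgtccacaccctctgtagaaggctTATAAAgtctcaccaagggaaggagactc
Krt36, chr11:100105627-100105876 (- strand): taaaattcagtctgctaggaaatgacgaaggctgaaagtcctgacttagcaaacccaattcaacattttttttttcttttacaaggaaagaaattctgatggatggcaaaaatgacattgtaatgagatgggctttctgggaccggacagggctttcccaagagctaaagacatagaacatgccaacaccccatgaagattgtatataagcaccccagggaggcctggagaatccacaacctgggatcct
In the Krt31 window the capitals mark TATAAA, which starts 29 bases before the gene's start, and CTTTGA, which starts 244 bases before it. No motif searched was matched in the Krt23 and Krt36 windows.

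RefSeq promoters could be matched for 59 of the 80 member genes, in 61 windows. The motif TATAAA, the core of the TATA box, was found on either strand in 34 of these, or 55.7%, and in 12.4% of all 32851 windows of this length. It stood in 10 of 14 windows of hair keratins and 17 of 25 of keratin-associated proteins, against 1 of 5 of simple keratins. CTTTGA, the core bound by LEF1, a factor of hair follicle development, was in 21.3% of member windows and in 13.8% of all. TGANTCA, the AP-1 site, was in 16.4% and in 6.75%. The palindromic estrogen response element GGTCANNNTGACC was in none of the member windows and in 0.0639% of all. These shares describe letters in a window and do not show a bound site.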

How the data were processed

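Oviduct RNA from 4 control and 4 Gen replicates was hybridised to 1-colour Agilent whole mouse genome arrays. The authors deposited the scanner output of Agilent Feature Extraction 9.5 and the same intensity values in a file of the series, equal within a relative tolerance of 1e-06 in 45018 spots per array. The values are background-adjusted and not scaled between arrays. Control spots (1639) and outlier spots were left out, log2 signals of a probe averaged and arrays scaled to the mean 75th percentile.

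Groups were compared with lmFit and eBayes in limma 3.58.1 (R 4.3.3, data.table version 1.17.8; plots with matplotlib 3.10.9) over 29560 probes above background on at least 4 arrays, with Benjamini-Hochberg adjustment and, for each gene, the probe with the highest mean signal. On simulated data, 87% of probes changed by 2 on the log2 scale and 61% of those changed by 1 were recovered at an adjusted p of 0.05. These shares do not describe every probe: Krt23 (1.98, SE 0.38) and Krt35 (-2.0, SE 0.48) did not pass in the measured data. Exact permutation tests used the 35 divisions of 8 arrays. Precision is limited by having 4 arrays per group.

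Current symbols of 103 of the 104 member probes came from RefSeq (GRCm38.p6; by accession for 75, symbol for 25 and synonym for 3), and Krt85 kept its name in the files. Positions of probes follow the array's design (mm7). The members, lists and tests were chosen with earlier results of these data known. Genes were named if they were tested members of the epithelial lists, or among the 5 other members with the highest signal. Alternatives were no filter or other filters on dim probes, other scaling, normexp background correction, a signal floor, kept outlier spots, a trended robust prior, the methods' t-test, a replicate block, the mean over probes and leaving out each array.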

Additional observations from a re-analysis of the deposited data

Results flagged for a closer look

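In 5 of 66 groups of 4 arrays tested among the member genes named, 1 array stood apart from the other 3 by more than Dixon's 95% critical value, which chance exceeds in about 1 of 20 groups. Krt8 in Gen replicate 1, at 152321, was above the other Gen arrays, which lay between 121974 and 125335. Krt19 in Gen replicate 2, at 68727, was below the other Gen arrays, which lay between 87439 and 87801. Krt1 in Gen replicate 2, at 75.4, was below the range of 92.0 to 95.7 of the others. In control replicate 3, Evpl at 12827 and Krtcap3 at 32777 were below the other controls, and that array had the fewest probes above background, 25391.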

How the results depend on the processing

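The count of members passing an adjusted p of 0.05, which was 0, became 20 of 80 without a filter on dim probes (3 higher and 17 lower), 5 without scaling between arrays, and 1 with only probes above background on all 8 arrays, with normexp or with a trended robust prior, and stayed 0 when any array was left out. Beside these, 4777 of 27669 genes passed without the filter and 790 of 19612 without scaling. With only probes above background on all 8 arrays 228 of 16818 genes passed, with normexp 358 and with the trended prior 305. The count at an unadjusted p under 0.01, which was 6, became 21 without the filter, 2 with the methods' t-test (0 after Benjamini-Hochberg adjustment), 3 with the replicate block, and 3 to 7 with an array left out. Genes of the cell type, junction and further cornified envelope lists passing the adjusted threshold numbered 9 without the filter, 5 without scaling and 1 with normexp. Krt23 passed, with limma adjusted p-values of 0.0236 without the filter, 0.0469 with probes above background on all arrays, 0.00041 without scaling, 0.0388 with normexp and 0.0413 with the trended prior, and did not under the other settings (0.0611 to 0.142 with an array left out).

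Without scaling the log2 fold change turned to 0.080 for Krt17, 0.15 for Trp63, 0.071 for Evpl, 0.037 for Ppl, Sfn and Krt75, and 0.14 for Krtap5-4, and with normexp to -0.022 for Krt78 and 0.017 for Krtap5-4. With an array left out, the log2 fold change lay between -0.073 (without Gen replicate 4) and 0.12 for Krt18, -0.45 and 0.026 (without Gen replicate 3) for Krt17, -0.74 and 0.24 (without Gen replicate 2) for Krt75, and -0.17 and 0.033 (without Gen replicate 3) for Krtap5-4, and Krt18 was also below 0 without control replicate 3 or Gen replicate 1. Krt5 minus Krt14 lay between -0.18 (without control replicate 1) and 0.29, and was below 0 without control replicate 3, Gen replicate 3 or Gen replicate 4 as well. Over the named genes, 660 of the values under alternatives kept direction and side of the threshold. The causes were not tested.

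Over all genes, 197 passed the adjusted threshold, and 2 did without control replicate 3 and 8 without Gen replicate 4. Genes at an unadjusted p under 0.01 split into 812 higher and 645 lower, 763 and 4284 without the filter, and 1324 and 154 without scaling. Same-numbered arrays of the 2 groups had correlations from -0.13 to 0.04, so the numbers were not taken to pair samples. With the replicate block no member passed, and 0.125 is the smallest p that a sign-flip test over 4 pairs allows. Signals near background limit what can be said of Krt31, Krt4 and most hair keratins.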
